A study of Mus musculus with 14 samples.

Results

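Meis1 and Pbx3 were described here through the peaks of MLL1, its partner WDR5 and dimethylated histone H3 lysine 4 (H3K4me2) called around them in mouse MLL-AF9 leukemia cells. All peaks of the 10 deposited lists that shared at least 1 bp with chr11:18730000-18970000 (Meis1, 240 kb) or chr2:33980000-34280000 (Pbx3, 300 kb) of the mouse build mm9 were taken. These windows held 213 of the 532629 peaks in all lists, 139 at Meis1 and 74 at Pbx3. Peaks were taken by position only, with no measured value. The genes and windows themselves were chosen with earlier results of these data known.

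The series mapped binding by chromatin immunoprecipitation and sequencing (ChIP-seq) in 14 samples, of which 4 inputs were not analysed here. One line, MAF9, was mouse bone marrow transduced with the fusion oncogene MLL-AF9, and was kept for 2 days in 20 µM MM-401 or in the solvent DMSO. The other was MLL1 flox/flox, ER-cre+/- bone marrow, likewise transduced with MAF9, and was kept for 2 days in 400 nM 4-hydroxytamoxifen (4OHT) or in the solvent ethanol (EtOH). WDR5 and H3K4me2 were mapped in all 4 conditions, MLL1 in DMSO and MM-401 only, each with 1 library. All cells thus carried the fusion oncogene, and both lines were grown with interleukin-3 at 10 ng/ml and 15% serum. As the study states, the MLL1 antibody recognised the C-terminal part of MLL1, which MLL-AF9 lacks. The labels do not say whether either line was 1 clone, and with no MLL1 list in the flox cells the deletion by 4OHT could not be checked in the lists. The study states that it assessed the deletion by genotyping.

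MEIS1 and PBX3 are homeodomain proteins of the TALE class that bind DNA together with HOX proteins. With HOXA9 they form complexes that maintain the self-renewal of MLL-rearranged leukemia cells, and Meis1 is among the best known targets of MLL fusions. MLL1 is a histone methyltransferase that methylates H3K4, and WDR5 is a subunit shared by the MLL family complexes that is needed for the full activity of MLL1. H3K4me2 marks promoters and enhancers, and often forms wide blocks over genes that are active in a lineage. MM-401 is an inhibitor that occupies the site on WDR5 to which MLL1 binds, and 4OHT switches on the ER-fused Cre recombinase, which excises the floxed part of Mll1.

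The lists hold positions only, with no score, height or read count, so depth was unknown for every library and a site without a peak is a site where none was called. As each antibody had 1 library in a condition, replicate error was unknown, no test between conditions was possible, and no p-value is given. Differences between conditions below are therefore differences between single lists, and intervals are exact (Clopper-Pearson) 95% intervals that cover the counting of peaks only. The whole lists ran from 8525 peaks (DMSO MLL1) to 105136 peaks (DMSO H3K4me2). All lists but DMSO MLL1 carried the names and the 25 bp grid of the caller HPeak. The DMSO MLL1 list had neither and the study described MACS for MLL1, so the MLL1 lists of these cells differ in caller as well as in treatment.

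In the RefSeq gene table of GRCm38.p6, a later build, Meis1 (gene 17268) is 139224 bp long and lies between the coding genes Etaa1 and Spred2, overlapping the noncoding gene Gm16141. Pbx3 (gene 18516) is 200589 bp long and lies between Mvb12b and Mapkap1. No mm9 annotation was used here, so peaks were placed by their mm9 coordinates and by distance to one another, not by exon, intron or promoter. MLL1 itself has a CXXC domain that binds unmethylated CG dinucleotides, and for this reason the Meis1 promoter is shown with each CG in capitals. It is the RefSeq sequence of GRCm38.p6 chr11:19018920-19019219 on the minus strand, from 250 bases before to 50 after the annotated start.
Meis1 promoter: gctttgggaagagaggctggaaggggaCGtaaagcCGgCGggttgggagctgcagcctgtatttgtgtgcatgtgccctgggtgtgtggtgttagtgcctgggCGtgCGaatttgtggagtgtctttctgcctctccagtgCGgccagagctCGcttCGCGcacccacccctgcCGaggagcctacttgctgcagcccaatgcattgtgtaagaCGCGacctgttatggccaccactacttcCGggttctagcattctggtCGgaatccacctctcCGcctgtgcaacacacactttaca
The letters CG, which read the same on both strands, occurred 15 times in these 300 bases. The median over 32851 mouse promoters of that length was 7, and 34.6% of promoters held at least as many as Meis1. Its interval was not carried to mm9, so no peak is assigned to it.

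Of the 2 windows, Meis1 was the denser in H3K4me2. At Meis1, H3K4me2 had 46 peaks in DMSO, 25 in MM-401, 27 in EtOH and 19 in 4OHT. These covered 48900 bp in DMSO, 45075 bp in MM-401, 38575 bp in EtOH and 31175 bp in 4OHT. In all 4 conditions the covered share of the window was more than that of chromosome 11 as a whole. It was 20.4% against 6.17% in DMSO and 18.8% against 5.73% in MM-401, and in the flox cells 16.1% against 6.98% in EtOH and 13.0% against 6.17% in 4OHT.

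The Pbx3 window lay closer to its chromosome. It held 16 H3K4me2 peaks in DMSO, 9 in MM-401, 15 in EtOH and 13 in 4OHT, covering 18450 bp, 14800 bp, 16400 bp and 12975 bp in that order. These lengths were 6.15%, 4.93%, 5.47% and 4.32% of the window, against 4.35%, 4.04%, 4.71% and 4.22% of chromosome 2. Thus the 4OHT list at Pbx3 was near the chromosome level, while at Meis1 every list stood above it.

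**Figure D1:**
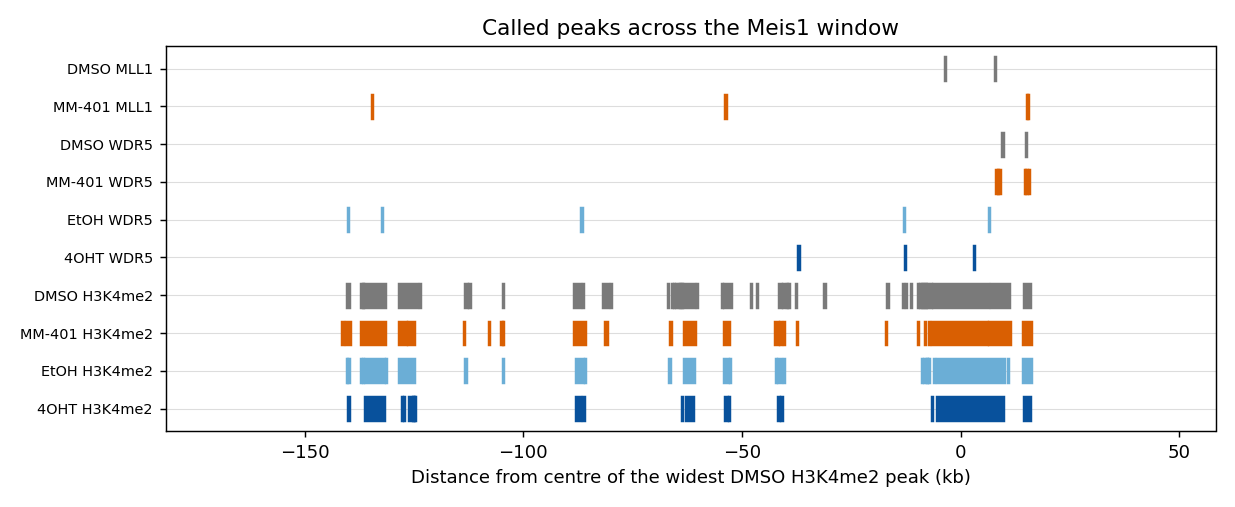
Peaks of the 10 lists across the 240 kb Meis1 window, 1 row per list, by distance in kb from the centre of the widest DMSO H3K4me2 peak. Each bar is a called peak, drawn at least 0.5 kb wide, and colours mark the condition. A wide H3K4me2 block near 0 stands in all 4 conditions, with 46 peaks in DMSO and 19 in 4OHT over the window, and the DMSO MLL1 and WDR5 peaks lie in or beside that block.

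**Figure D2:**
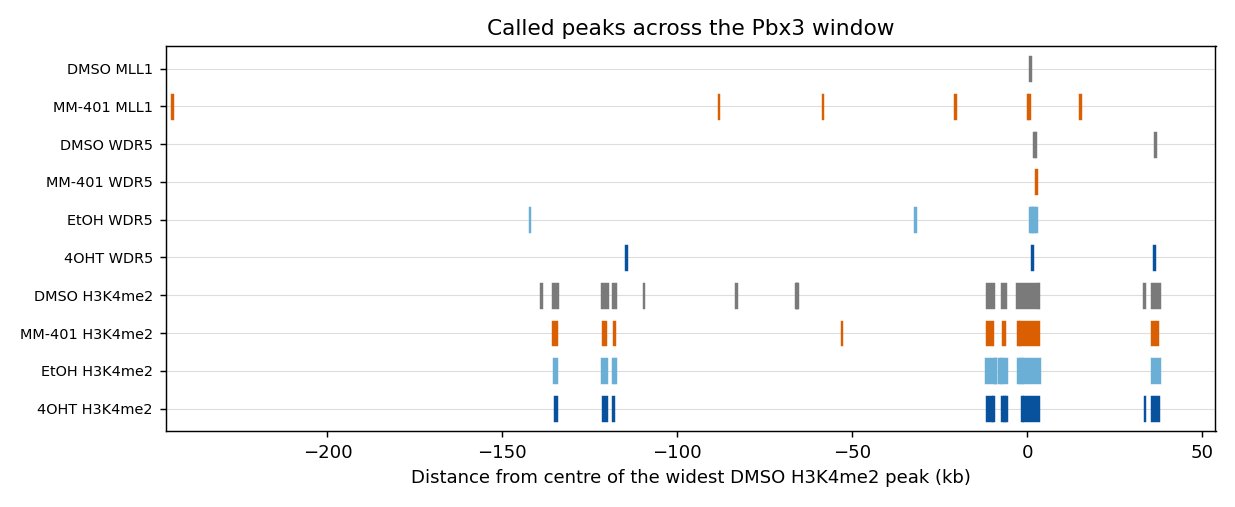
Peaks of the 10 lists across the 300 kb Pbx3 window, drawn in the same way. H3K4me2 stands at the same 7 positions in every condition, and MLL1 has 7 peaks in MM-401 and 1 in DMSO, from lists of 27345 and 8525 peaks.

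The leading feature of the Meis1 window was 1 H3K4me2 domain that was called over most of its width in every condition. To set the conditions side by side, H3K4me2 peaks of the 4 lists that shared or touched bases were merged into domains. The widest, chr11:18904026-18923175, spanned 19150 bp. H3K4me2 covered 18525 bp of it in DMSO, 18675 bp in MM-401, 17175 bp in EtOH and 15850 bp in 4OHT. MM-401 and DMSO therefore differed by 0.81% of the DMSO length, and 4OHT and EtOH by -7.71% of the EtOH length.

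The largest single peaks of the window stood inside this domain. In DMSO the widest was chr11:18905251-18918250, at 13000 bp the 67th widest of its list, and in MM-401 chr11:18904901-18917900, also 13000 bp and the 84th widest. The EtOH peak chr11:18906001-18921775 spanned 15775 bp (126th widest) and the 4OHT peak chr11:18906001-18921650 spanned 15650 bp (52nd widest). The block was broken at different places, since the lists of MAF9 cells had a gap of 275 bp (DMSO) or 100 bp (MM-401) which the flox lists spanned, and the EtOH list had one of 700 bp beyond 18921775, close to where the 4OHT calls ended. At the low-coordinate end the first called base was 18904101 in DMSO, 18904201 in MM-401, 18904026 in EtOH and 18905026 in 4OHT, and at the other end the last was 18923050, 18923175, 18922650 and 18921650. Both ends thus stood further in under 4OHT than under EtOH, by 1000 bp each. The gaps inside the domain summed to 425 bp, 300 bp, 1450 bp and 775 bp in the order DMSO, MM-401, EtOH and 4OHT.

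At Pbx3 the widest domain, chr2:34223101-34229800, spanned 6700 bp. H3K4me2 covered 6300 bp of it in DMSO, 6125 bp in MM-401, 5875 bp in EtOH and 5025 bp in 4OHT. The difference was -2.78% between MM-401 and DMSO and -14.5% between 4OHT and EtOH. Its widest single peaks were 6200 bp in DMSO (chr2:34223101-34229300), 5700 bp in MM-401 (chr2:34223776-34229475), 4875 bp in EtOH (chr2:34224926-34229800) and 4500 bp in 4OHT (chr2:34225001-34229500). All conditions shared the high-coordinate end to within 325 bp, while the low-coordinate end stood at 34223101 in DMSO, 34223326 in MM-401, 34223276 in EtOH and 34224401 in 4OHT. In rank these peaks stood lower in their lists than those of Meis1, between the 875th widest in DMSO and the 3348th widest in EtOH.

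**Figure D3:**
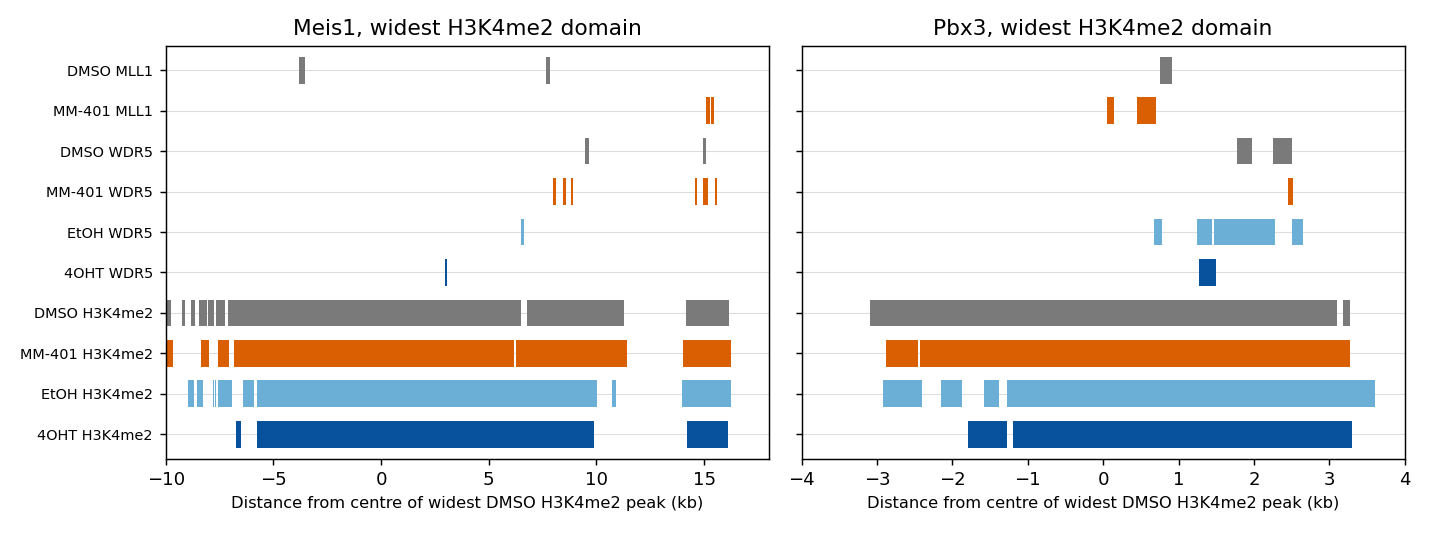
The widest H3K4me2 domain of Meis1 (left, with the next domain at its high-coordinate side) and of Pbx3 (right), 1 row per list, by distance in kb from the centre of the widest DMSO H3K4me2 peak. Peaks are drawn to scale and colours mark the condition. DMSO MLL1 has 2 peaks in the Meis1 block and 1 in the Pbx3 block, and the EtOH WDR5 peak of 800 bp at Pbx3 is the widest WDR5 peak of either window.

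The wide domains were shared between conditions and most narrow ones were not. At Meis1 the merged lists gave 46 domains, of which 9 were called in all 4 conditions, or 19.6% (9.36% to 33.9%). At Pbx3 this held for 7 of 18 domains, or 38.9% (17.3% to 64.3%), and over all lists for 34.6% of 120409 domains. In bases the windows did not stand apart, since 54.5% of the bases in any list at Meis1 and 54.9% at Pbx3 were called in all 4 conditions, against 52.8% over all chromosomes.

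In both windows the domains called in all 4 conditions were wider than every domain called in 1 condition. Part of this follows from the merging, since a domain joins all peaks that touch, and a wider one more readily meets a peak of another list. Domain widths were not set against those over all chromosomes. Domains called in all 4 conditions spanned 1375 to 19150 bp at Meis1 (median 2850 bp), while those called in 1 condition spanned 75 to 750 bp. At Pbx3 the ranges were 1300 to 6700 bp (median 1875 bp) and 75 to 575 bp. Of the 29 single-condition domains at Meis1, 22 came from DMSO, 6 from MM-401 and 1 from EtOH. Of the 10 at Pbx3, 6 came from DMSO, 3 from EtOH and 1 from MM-401. No single-condition domain of either window was from 4OHT. The whole H3K4me2 lists ran from 91305 peaks in 4OHT to 105136 in DMSO. How single-condition domains divide among the lists over all chromosomes was not computed, so these counts cannot be called particular to the windows.

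**Figure D4:**
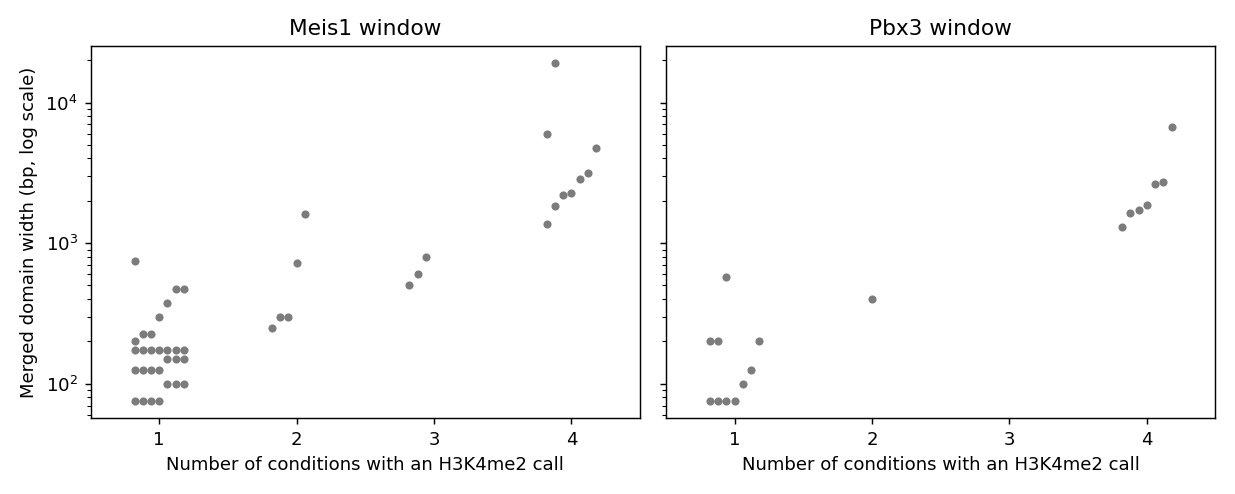
Width of each merged H3K4me2 domain (bp, log scale) by the number of conditions in which it was called, for Meis1 (left, 46 domains) and Pbx3 (right, 18 domains). Each point is a domain, spread sideways for visibility. Domains called in all 4 conditions span 1300 bp or more, and those called in 1 condition 750 bp or less, in part because merging widens shared domains.

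Only 1 domain of at least 1 kb lacked a call in any condition. It was chr11:18829751-18831350 at Meis1, where H3K4me2 covered 1600 bp in DMSO and 900 bp in MM-401 and had no peak in EtOH or 4OHT. The presence of a call thus differed between the MAF9 and flox cells rather than with either treatment. The covered length was also lower in MM-401 than in DMSO. A further 3 domains at Meis1, of 500 to 800 bp, were called in DMSO, MM-401 and EtOH but not in 4OHT. The share of such domains over all chromosomes was not computed.

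Among the other wide domains of Meis1, chr11:18783051-18787775 (4725 bp) had the largest relative difference in the flox cells. It was covered over 4725 bp in DMSO, 3825 bp in MM-401, 3950 bp in EtOH and 2050 bp in 4OHT. It was 1 unbroken peak in DMSO and EtOH and 6 separate peaks in 4OHT, and the covered length differed by -48.1% between 4OHT and EtOH and by -19.0% between MM-401 and DMSO. Its neighbour chr11:18774476-18780475 (6000 bp) was covered over 5625 bp in DMSO, 6000 bp in MM-401, 5300 bp in EtOH and 4800 bp in 4OHT. Here the sign differed between the treatments, at 6.67% for MM-401 and -9.43% for 4OHT.

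The next in width were chr11:18848076-18851225 and chr11:18823126-18825975. The first was covered over 3000 bp in DMSO, 2950 bp in MM-401, 2750 bp in EtOH and 2175 bp in 4OHT, lowest in 4OHT. The second was covered over 2150 bp in DMSO, 2775 bp in MM-401, 2250 bp in EtOH and 1875 bp in 4OHT, highest in MM-401 and lowest in 4OHT. The remaining 4 domains called in all conditions spanned 1375 to 2275 bp. One of them, chr11:18925726-18928000, lay 2551 bp beyond the main block and was covered over 2025 bp in DMSO, 2225 bp in MM-401, 2275 bp in EtOH and 1925 bp in 4OHT.

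Counted over the 9 Meis1 domains called in all 4 conditions, 9 were covered over fewer bases in 4OHT than in EtOH, with differences from -7.71% to -48.1%. Over all chromosomes this held for 64.1% of such domains and for 66.5% of those of 1 kb or wider. Under MM-401 the Meis1 domains went both ways, with 3 covered over fewer bases than in DMSO and 6 over more, where 55.2% of all such domains, and 55.1% of those of 1 kb or wider, had fewer. The controls differed too: 6 of the 9 had fewer bases in EtOH than in DMSO, against 39.1% of all such domains and 34.6% of those of 1 kb or wider. The span of the MM-401 differences at Meis1 ran from -29.5% at chr11:18857326-18859525 to 72.5% at chr11:18869126-18870950.

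At Pbx3, 6 of the 7 domains called in all conditions were covered over fewer bases in MM-401 than in DMSO, and 1 over as many, where 55.2% of such domains over all chromosomes had fewer. In the flox cells 6 had fewer bases in 4OHT than in EtOH and 1 had more (64.1% fewer over all chromosomes), and between the controls 4 had fewer in EtOH than in DMSO and 3 more (39.1% fewer). At chr2:34261476-34264200 H3K4me2 covered 2500 bp in DMSO, 2075 bp in MM-401, 2600 bp in EtOH and 2075 bp in 4OHT, and at chr2:34214176-34216825 it covered 2100 bp, 2100 bp, 2650 bp and 2025 bp. Both of these outer domains had their greatest length in EtOH.

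The smaller Pbx3 domains differed among themselves. At chr2:34090376-34092025 the covered length was 1650 bp in DMSO, 1475 bp in MM-401, 1175 bp in EtOH and 1000 bp in 4OHT, with differences of -10.6% for MM-401 and -14.9% for 4OHT. At chr2:34104426-34106300 the covered length was 1875 bp in DMSO, 1250 bp in MM-401, 1500 bp in EtOH and 1550 bp in 4OHT, which made it the only one of the 7 with more bases in 4OHT than in EtOH. At chr2:34218626-34220350 it was 1300 bp, 1000 bp, 1700 bp and 875 bp. The narrowest of them, chr2:34107451-34108750, had 1300 bp in DMSO, 650 bp in MM-401, 550 bp in EtOH and 175 bp in 4OHT. There the differences, -50% between MM-401 and DMSO and -68.2% between 4OHT and EtOH, were the most negative among the domains called in all conditions in both windows.

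**Figure D5:**
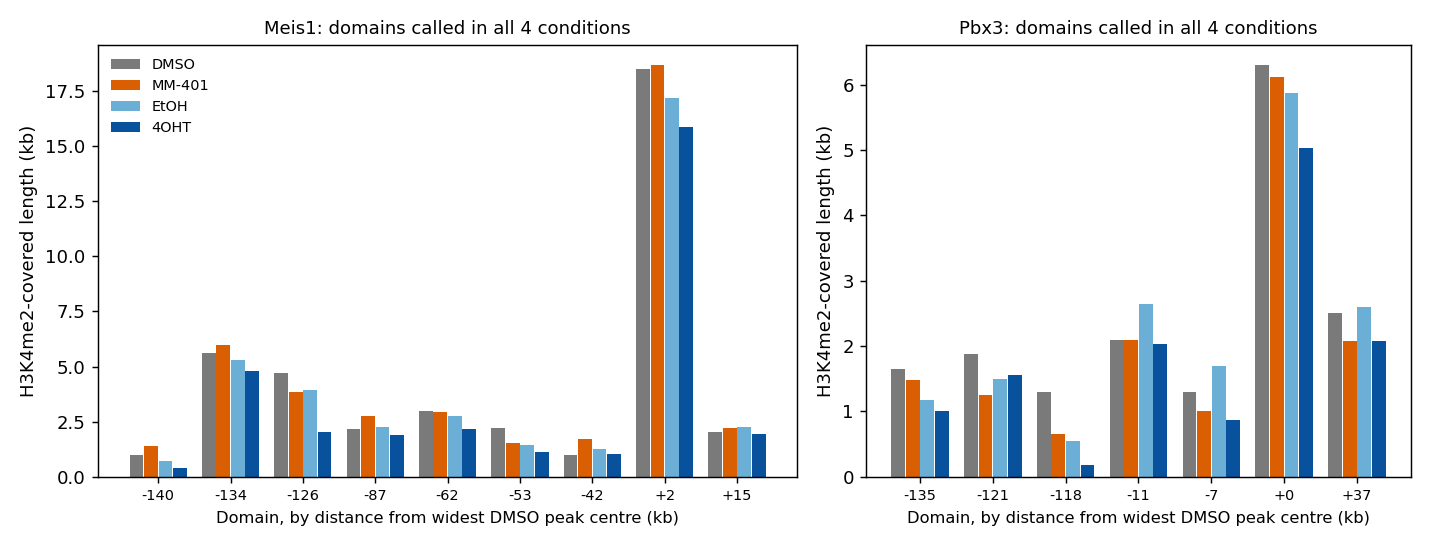
Length covered by H3K4me2 (kb) in each domain called in all 4 conditions, for Meis1 (left, 9 domains) and Pbx3 (right, 7 domains), ordered by distance in kb from the centre of the widest DMSO peak. Each bar is 1 library, so there are no error bars. The 4OHT bar is below the EtOH bar at all 9 Meis1 domains and at 6 of the 7 Pbx3 domains.

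Summed over each window, H3K4me2 length was lower in both treated lists. The Meis1 sum differed by -7.82% between MM-401 and DMSO, and the Pbx3 sum by -19.8%, where all chromosomes differed by -6.54%. Between 4OHT and EtOH it differed by -19.2% at Meis1 and by -20.9% at Pbx3, where all chromosomes differed by -9.52%. In number of peaks the differences were -45.7% at Meis1 and -43.8% at Pbx3 for MM-401 (all chromosomes -12.5%), and -29.6% and -13.3% for 4OHT (all chromosomes -9.51%). EtOH and DMSO are the solvent controls of different lines. EtOH minus DMSO was -10325 bp at Meis1, where MM-401 minus DMSO was -3825 bp. At Pbx3 EtOH minus DMSO was -2050 bp and MM-401 minus DMSO was -3650 bp. Over all chromosomes H3K4me2 covered more in EtOH than in DMSO, 100759975 bp against 97192250 bp, so both windows had the opposite sign.

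Overlap of single peaks showed the same split by width. Of the 46 DMSO H3K4me2 peaks at Meis1, 22 shared at least 1 bp with an MM-401 peak, or 47.8% (32.9% to 63.1%), and of the 16 at Pbx3 9 did, or 56.2% (29.9% to 80.2%), against 69.5% over the whole list. Among peaks of 1 kb or wider all 11 at Meis1 and all 7 at Pbx3 were overlapped (99.6% of the whole list). Among narrower peaks 11 of 35 at Meis1, or 31.4% (16.9% to 49.3%), and 2 of 9 at Pbx3 were, against 55.8% of the whole list. The 24 DMSO peaks at Meis1 without an MM-401 peak were 75 to 725 bp wide, with a median of 175 bp.

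Ethanol and 4OHT gave a like picture. An EtOH peak was overlapped by 4OHT in 11 of 27 cases at Meis1, or 40.7% (22.4% to 61.2%), and in 9 of 15 at Pbx3, against 62.8% of the whole list. All 8 peaks of 1 kb or wider at Meis1 and all 6 at Pbx3 were overlapped (99.9% of the whole list), and of the narrower ones 3 of 19 at Meis1 and 3 of 9 at Pbx3 (49.0% of the whole list). The 2 controls differed by as much. In DMSO, 21 of 46 Meis1 peaks and 9 of 16 Pbx3 peaks overlapped EtOH, where 69.4% of the whole list did.

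In the reverse direction, the shorter lists lay mostly within the longer ones. Of the MM-401 peaks, 19 of 25 at Meis1 and 8 of 9 at Pbx3 overlapped DMSO (80.1% of the whole list). From 4OHT, 16 of 19 and 12 of 13 overlapped EtOH (78.8%), and from EtOH, 23 of 27 and 12 of 15 overlapped DMSO (65.7%). In bases, 98.0% of the 4OHT length at Meis1 and 94.2% at Pbx3 lay in EtOH peaks, against 89.3% over all chromosomes.

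MLL1 was called at 1 to 7 positions per list and window, from whole lists of 8525 peaks in DMSO and 27345 in MM-401. In DMSO this was 0.83 peaks per 100 kb at Meis1 against 0.51 on chromosome 11, and 0.33 at Pbx3 against 0.36 on chromosome 2. In MM-401 it was 1.67 against 1.52 at Meis1 and 2.33 against 1.30 at Pbx3. Pbx3 in DMSO was thus the one case not above its chromosome. At Meis1 DMSO had 2 MLL1 peaks, both in the main H3K4me2 block, chr11:18907942-18908204 (263 bp, the 405th widest of its list) and chr11:18919426-18919581 (156 bp). MM-401 had 4, all elsewhere, chr11:18777101-18777300 (200 bp), chr11:18857876-18858050 (175 bp), chr11:18926851-18927025 (175 bp) and chr11:18927051-18927200 (150 bp). None of the MM-401 peaks lay in the main block, and the nearest pair between the lists was 7270 bp apart.

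At Pbx3 DMSO had 1 MLL1 peak, chr2:34226950-34227115 (166 bp), in the main H3K4me2 domain. MM-401 had 7, of which chr2:34226651-34226900 (250 bp) ended 50 bp short of the DMSO peak and chr2:34226251-34226350 (100 bp) lay in the same domain. The other 5 lay outside H3K4me2, at chr2:33981701-33981775, chr2:34137901-34138000, chr2:34167651-34167725, chr2:34205501-34205575 and chr2:34241176-34241250, and were 75 to 100 bp wide. With the MM-401 list cut to the length of the DMSO list by width, 1 of the 7 remained, so the counts were then 1 and 1. At Meis1 the same cut left 4 in MM-401 and 2 in DMSO. In the full lists Pbx3 had MLL1 calls within its main domain in both conditions, and Meis1 only in DMSO. The different callers of these lists are to be kept in mind. The Pbx3 side rests on 1 DMSO peak, the 5846th widest of its list, so no difference between the genes can be read.

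No MLL1 peak of either window was shared between DMSO and MM-401, that is 0 of 2 at Meis1 and 0 of 1 at Pbx3. This was also rare over the whole lists, where 5.30% of DMSO peaks overlapped MM-401 and 1.70% of MM-401 peaks overlapped DMSO, so the absence of shared peaks in the windows was near the background. With H3K4me2 of the same condition, the DMSO peaks overlapped in 2 of 2 cases at Meis1 and 1 of 1 at Pbx3 (51.6% of the whole list). For MM-401 it was 4 of 4 at Meis1 and 2 of 7 at Pbx3 (42.4%).

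WDR5 stood in or beside the main Meis1 block in MAF9 cells and was more scattered in the flox cells. The whole WDR5 lists held 14481 (DMSO), 17273 (MM-401), 34587 (EtOH) and 41054 (4OHT) peaks. Of these, 88.7%, 87.7%, 54.3% and 47.1% overlapped H3K4me2, so the flox lists were more scattered as a whole. Per 100 kb, Meis1 had 0.83 peaks in DMSO against 0.81 on chromosome 11, and 2.50 against 1.08 in MM-401. It had 2.08 against 2.14 in EtOH and 1.25 against 2.78 in 4OHT. In DMSO there were 2 peaks at Meis1, chr11:18921226-18921400 (175 bp) in the block and chr11:18926701-18926825 (125 bp) in the neighbouring domain. Under MM-401 there were 6, 3 in the block between 18919726 and 18920650 and 3 in the neighbouring domain between 18926326 and 18927350. The widest of these, chr11:18926676-18926925 (250 bp), contained the whole DMSO peak there. WDR5 was thus called in both domains with and without MM-401. The counts of 6 and 2 rested on narrow peaks, since among the widest 50% of each list both conditions had 1 peak at Meis1. With the WDR5 lists cut to equal length the counts were 5 and 2.

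EtOH cells had 5 WDR5 peaks at Meis1, at chr11:18771701-18771825, chr11:18779276-18779450, chr11:18824976-18825175, chr11:18898726-18898975 and chr11:18918226-18918375. Only the last lay in the main block. 4OHT cells had 3, at chr11:18874601-18874725, chr11:18898876-18899025 and chr11:18914726-18914825, of which again the last lay in the block. The EtOH peak at 18898726 and the 4OHT peak at 18898876 shared 100 bp, and this site was outside H3K4me2 in both conditions.

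At Pbx3 the WDR5 peaks clustered toward the high-coordinate end of the main domain. DMSO had chr2:34227976-34228175 (200 bp) and chr2:34228451-34228700 (250 bp) there, and chr2:34262576-34262725 (150 bp) in an outer domain. MM-401 had a single peak, chr2:34228651-34228725 (75 bp), which shared 50 bp with the second DMSO peak. The domain thus held WDR5 calls in both MAF9 conditions, over 450 bp in DMSO and 75 bp in MM-401.

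EtOH cells had 6 WDR5 peaks at Pbx3, 4 of them in the main domain. The widest, chr2:34227676-34228475, measured 800 bp and was the 199th widest of its list. Beside it stood chr2:34226876-34226975, chr2:34227451-34227650 and chr2:34228701-34228850, and 2 further peaks, chr2:34083851-34084025 and chr2:34194001-34194100, lay outside H3K4me2. 4OHT cells had 3, chr2:34227476-34227700 (225 bp) in the main domain, chr2:34262251-34262450 (200 bp) in the outer domain where DMSO had one, and chr2:34111576-34111675 outside H3K4me2. The 4OHT peak in the main domain shared 175 bp and 25 bp with 2 EtOH peaks, and the wide EtOH peak was covered by 4OHT over those 25 bp only.

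In counts, WDR5 under MM-401 and DMSO differed by 4 peaks at Meis1 and by -2 at Pbx3, and under 4OHT and EtOH by -2 and -3. The whole lists were 19.3% longer in MM-401 than in DMSO and 18.7% longer in 4OHT than in EtOH, so only Meis1 under MM-401 had the sign of the whole list. These counts are of 1 to 6 peaks.

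Between partner lists, 1 of 2 DMSO peaks at Meis1 and 1 of 3 at Pbx3 overlapped MM-401 (40.1% of the whole list), and 1 of 6 and 1 of 1 in reverse (34.2%). For EtOH against 4OHT it was 1 of 5 and 2 of 6 (18.5%), and 1 of 3 and 1 of 3 in reverse (15.6%). The controls shared none of 2 DMSO peaks at Meis1 and 2 of 3 at Pbx3 (34.5%), and from EtOH none of 5 and 1 of 6 (14.7%). At Pbx3 the 2 shared DMSO peaks both overlapped the same EtOH peak of 800 bp, and at Meis1 no WDR5 position was shared between the lines' controls. The intervals for DMSO were wide, 0% to 84.2% at Meis1 and 9.43% to 99.2% at Pbx3. Both hold the whole-list share of 34.5%, so no difference between the windows can be read from them.

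WDR5 in MAF9 cells lay in H3K4me2 throughout, in 2 of 2 and 3 of 3 cases in DMSO (88.7% of the whole list) and 6 of 6 and 1 of 1 in MM-401 (87.7%), Meis1 first. In the flox cells it was 4 of 5 at Meis1 and 4 of 6 at Pbx3 in EtOH (54.3%), and 1 of 3 and 2 of 3 in 4OHT (47.1%). Each of these shares rests on 1 to 6 peaks.

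MLL1 and WDR5 seldom shared bases, in the windows as over the whole lists, so this was not particular to Meis1 or Pbx3. In DMSO 0 of 2 MLL1 peaks at Meis1 and 0 of 1 at Pbx3 overlapped WDR5 (5.56% of the whole list), the nearest at Meis1 being 1645 bp apart. In MM-401 it was 1 of 4 at Meis1, where chr11:18926851-18927025 shared 75 bp with WDR5, and 0 of 7 at Pbx3 (3.73%). That was the only overlap of the pair in one condition. Across the lines, the EtOH WDR5 peak chr2:34226876-34226975 shared 26 bp with the DMSO MLL1 peak of Pbx3 and 25 bp with the MM-401 MLL1 peak beside it.

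Taking MLL1 and WDR5 peaks as one set, the widest H3K4me2 domain of Meis1 made up 7.98% of the window. It held 3 of the 4 peaks of DMSO and 3 of the 10 of MM-401, and 1 of the 5 WDR5 peaks of EtOH and 1 of the 3 of 4OHT. The widest Pbx3 domain made up 2.23% of its window and held 3 of 4 peaks in DMSO, 3 of 8 in MM-401, 4 of 6 in EtOH and 1 of 3 in 4OHT. EtOH and 4OHT had WDR5 peaks only, and the MLL1 lists of DMSO and MM-401 differ in caller. In DMSO these domains held 18525 of the 48900 bp of H3K4me2 at Meis1 and 6300 of the 18450 bp at Pbx3. Over the whole DMSO list, 88.7% of WDR5 peaks overlapped H3K4me2. The share of peaks in such wide domains over all chromosomes was not computed.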

How the data were processed

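The authors deposited each ChIP library as a list of peak positions (chromosome, start, end), called on 1 library at a time. The submitters' processing notes name Bowtie and mm9. Positions of the 9 HPeak lists were read as 1-based and inclusive, and starts of the DMSO MLL1 list, of which 4.12% fell on the grid, as 0-based and raised by 1 bp. The thresholds of the HPeak lists are not given in the sources used here. Peaks were compared with Python 3.11.15 and numpy 2.4.6, intervals were computed with scipy 1.17.1, and figures were drawn with matplotlib 3.10.9. Overlaps were checked on simulated lists with known answers, and on deposited lists against bedtools 2.31.1. An overlap needed 1 shared bp. Distances are differences between the nearest positions of 2 peaks.

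The genes, windows and comparisons were chosen with earlier results of these data known. The rule for peaks named by position took every MLL1 peak, WDR5 peaks shared between lists, the widest peak of each list, the 5 widest H3K4me2 domains of each window, and domains of at least 1 kb without a call in some condition. Other WDR5 peaks and domains were named after their values were seen, and the counts of domains by direction were also added then. Peaks at promoters of other MEIS and PBX genes were not analysed here, for want of an mm9 annotation.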

Additional observations from a re-analysis of the deposited data

Results flagged for a closer look

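WDR5 at Meis1 differed in sign between the treatments. The number of peaks under MM-401 minus DMSO was 4 (6 against 2), while 4OHT minus EtOH was -2 (3 against 5). In bases covered, MM-401 minus DMSO was 525 bp (825 bp against 300 bp) and 4OHT minus EtOH was -525 bp (375 bp against 900 bp). Each value rests on 1 library per condition, and the difference between the treatments was not tested. Among the widest 50% of each list DMSO and MM-401 had 1 peak each, so there the opposite sign was absent. With lists of equal length the opposite sign remained, at 5 in MM-401 against 2 in DMSO and 0 in 4OHT against 4 in EtOH. At Pbx3 both treated lists had fewer WDR5 peaks than their solvents, 1 against 3 and 3 against 6.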

How the results depend on the processing

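Of 214 values computed under other settings, 161 stayed within the limit set for them and 53 moved, where counts and covered lengths could differ by up to 1.5 times and shares within their interval. Reading DMSO MLL1 starts as 1-based, or keeping only peaks wholly inside a window, moved none. With the widest 50% of each list, counts at Meis1 became 16 (DMSO), 16 (MM-401), 12 (EtOH) and 9 (4OHT) for H3K4me2, 1 each for DMSO MLL1 and for DMSO, MM-401 and 4OHT WDR5, and 16 domains. At Pbx3 they became 9 (DMSO), 8 (EtOH) and 8 (4OHT) for H3K4me2, 0 for DMSO MLL1, 1 for MM-401 MLL1, 0 for MM-401 WDR5, and 8 domains. The difference of 46 against 25 Meis1 H3K4me2 peaks between DMSO and MM-401 thus came from narrow peaks. Under that setting H3K4me2 shares overlapped at Meis1 were 75% (DMSO by MM-401), 66.7% (EtOH by 4OHT), 100% (4OHT by EtOH) and 68.8% (DMSO by EtOH), and at Pbx3 88.9% (DMSO by MM-401 and by EtOH) and 100% (MM-401 and EtOH by DMSO). WDR5 shares were 0% between DMSO and MM-401 in both directions and 100% for 4OHT by EtOH at Meis1, and 0% for DMSO by MM-401 and 100% for DMSO by EtOH at Pbx3.

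Counting peaks up to 2 kb apart as shared gave, for H3K4me2 at Meis1, 89.1% (DMSO by MM-401), 96% (MM-401 by DMSO), 88.9% (EtOH by 4OHT), 100% (4OHT by EtOH), 78.3% (DMSO by EtOH) and 100% (EtOH by DMSO). At Pbx3 it gave 100% for EtOH by 4OHT, 4OHT by EtOH and EtOH by DMSO. WDR5 at Meis1 became 100% between DMSO and MM-401 in both directions, WDR5 at Pbx3 66.7% for EtOH by DMSO, and MLL1 at Pbx3 100% for DMSO by MM-401. Requiring 50% of the peak to be covered gave 0% for WDR5 EtOH by 4OHT at Meis1, and for DMSO by MM-401 and EtOH by DMSO at Pbx3. With lists of equal length, 4OHT WDR5 at Meis1 had 0 peaks and 0% of EtOH WDR5 overlapped it, while at Pbx3 MM-401 had 1 MLL1 and 0 WDR5 peaks and 0% of DMSO WDR5 overlapped MM-401. Merging over gaps of up to 500 bp gave 21 domains at Meis1, and over 2 kb 16 at Meis1 and 10 at Pbx3. Merged over 500 bp, a setting added after the data were seen, 4 Meis1 domains had fewer bases in MM-401 than in DMSO and 9 fewer in 4OHT than in EtOH. No paired analysis was possible because each condition and antibody had 1 library, and leaving out a replicate was not possible for the same reason. Depth was unknown, so a missing peak cannot be told apart from a shallow library.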
